A study of Mus musculus with 2 samples.

Results

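The Vgll2-high oral epithelium of the E9.5 mouse mandibular arch comprised 861 cells of 1 single-cell library, out of 14293 cell barcodes in that library and 25956 in the whole series. Its cells were chosen by their own transcript counts. Among the 12744 cells with 200 to 5500 detected genes and at most 10% mitochondrial UMIs (unique molecular identifiers, each standing for 1 counted transcript molecule), a cell had at least 1 UMI of Epcam and at least 3 of Vgll2. It had none of Foxa1, Foxa2, Shh, Pax1 or Tfap2b and at most 1 of Sfn. The cells compared with them, called Vgll2-negative here, met the same conditions with no Vgll2 UMI and numbered 1713. A further 405 cells carried 1 or 2 Vgll2 UMIs. The library came from whole E9.5 mandibular arches of 8 pooled embryos, genotype K14Cre;R26mT/mG, untreated, dissociated and sequenced without sorting, so that epithelium and mesenchyme were both present. A library of E12.0 mandibular epithelium, from 6 pooled embryos of that genotype sorted for GFP, was used only for the levels of Vgll2, Pitx1, Sox2 and Fgf8 at the later stage. In this genotype the keratin 14 promoter drives Cre, which switches a reporter from membrane tomato to membrane GFP. There was 1 library per stage, so no test between stages or cell groups was possible, and cells of 1 library are not replicates. Intervals below are 95% intervals that cover counting error only.

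Vgll2 encodes a vestigial-like cofactor that has no DNA-binding domain of its own and binds TEAD transcription factors. TEAD factors also bind YAP and TAZ, the coactivators controlled by the Hippo pathway. The mandibular arch is a core of neural crest-derived mesenchyme covered by ectoderm outside and endoderm inside. Its oral ectoderm is a source of FGF8, while BMP4 comes from a separate, more distal domain, and both signals pattern the mesenchyme beneath. PITX1 marks oral ectoderm from early stages and later the dental epithelium, and SOX2 is found in oral and dental progenitors.

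Vgll2 (chr10:52022502-52028471, + strand, GRCm38) was read at 519 CPM (UMIs per 1000000 summed UMIs of a cell group, interval 507 to 532) in the Vgll2-high cells. Per cell it ranged from 3 to 38 UMIs with a median of 7, and 378 cells had 8 or more. Since the rule used these counts, they describe the choice and are no finding. The mesenchymal cells of the same library, those with no Epcam and at least 3 UMIs of Prrx1 and Pdgfra together, read Vgll2 at 5.94 CPM, and 9.29% of these 3812 cells had a UMI at a median of 16946 UMIs per cell. Of 1231 Epcam-positive cells with at least 3 Vgll2 UMIs, 370 were left out by the exclusions. Pax1 alone or with others removed 142 of them, the Foxa1, Foxa2 and Shh condition 158, Tfap2b 95 and Sfn 71. Only 27 kept cells had 3 or more Vgll2 UMIs and no Epcam. The Vgll2-high cells made up 6.76% of the kept cells and 17.9% of the 4816 kept cells with Epcam.

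The Vgll2-high cells were deeper than the Vgll2-negative ones. They summed to 13439276 UMIs, with 3007 to 28135 per cell, a median of 15092 UMIs and 4171 genes. The Vgll2-negative cells summed to 18910894 UMIs, with a median of 10449 UMIs and 3452 genes. A deeper cell reaches 3 Vgll2 UMIs more readily, and levels are therefore given as CPM. Scrublet called 24 of the Vgll2-high cells doublets, 2.79%, and 51 of the Vgll2-negative cells, 2.98%. The libraries shared 51 barcodes, of which 3 were those of Vgll2-high cells. Another 127 cells met every other condition but had over 5500 genes.

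The markers that gave the population its name were compared with the data. Epcam, an epithelial adhesion molecule, had a median of 7 UMIs per Vgll2-high cell against 3 per Vgll2-negative cell, and like Vgll2 it was part of the rule. Sox2 (chr3:34650405-34652461) was not used by the rule. It had a UMI in 74.1% of the Vgll2-high cells and 30.9% of the Vgll2-negative cells, and in 51.4% and 22.3% when every cell was reduced at random to 6100 UMIs, a step that dropped 13 and 362 shallower cells. Sox2 was thus detected in most but not all cells, and 223 of the 861 had none. In mesenchymal cells 9.86% had a Sox2 UMI.

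The Vgll2-negative cells carried transcripts of other cell types. The 12 arch mesenchyme markers summed to 732 CPM there, 140 CPM in the Vgll2-high cells and 1808 CPM in mesenchymal cells. The most abundant of them in the Vgll2-negative cells, Twist1, a transcription factor of cranial mesenchyme, read 203 CPM against 33.3 CPM in the Vgll2-high cells. Endothelial markers summed to 74.8 against 11.2 CPM. For this reason a second comparison, chosen after the data were seen, used cells with at least 3 Epcam UMIs and at most 1 UMI over Prrx1, Pdgfra and Col3a1. These restricted cells were 757 Vgll2-high and 829 Vgll2-negative cells, and in them the mesenchyme list summed to 104 and 226 CPM and the endothelial list to 8.82 and 8.36 CPM. Prrx1, Pdgfra and Col3a1 belong to the mesenchyme list, so part of its fall was set by the filter. The median depths of the restricted cells were 15020 and 10507 UMIs, and a floor of 3 Epcam UMIs asks for a higher level in a shallower cell. Epcam, at 503 against 360 CPM in all cells, read 533 against 599.9 CPM in restricted cells, so the restricted reference was the higher in Epcam. Ratios below are of all cells unless restricted cells are named, and both are given where the direction or the call differed. The part of the remaining mesenchymal UMIs in the results was not tested.

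**Figure D1:**
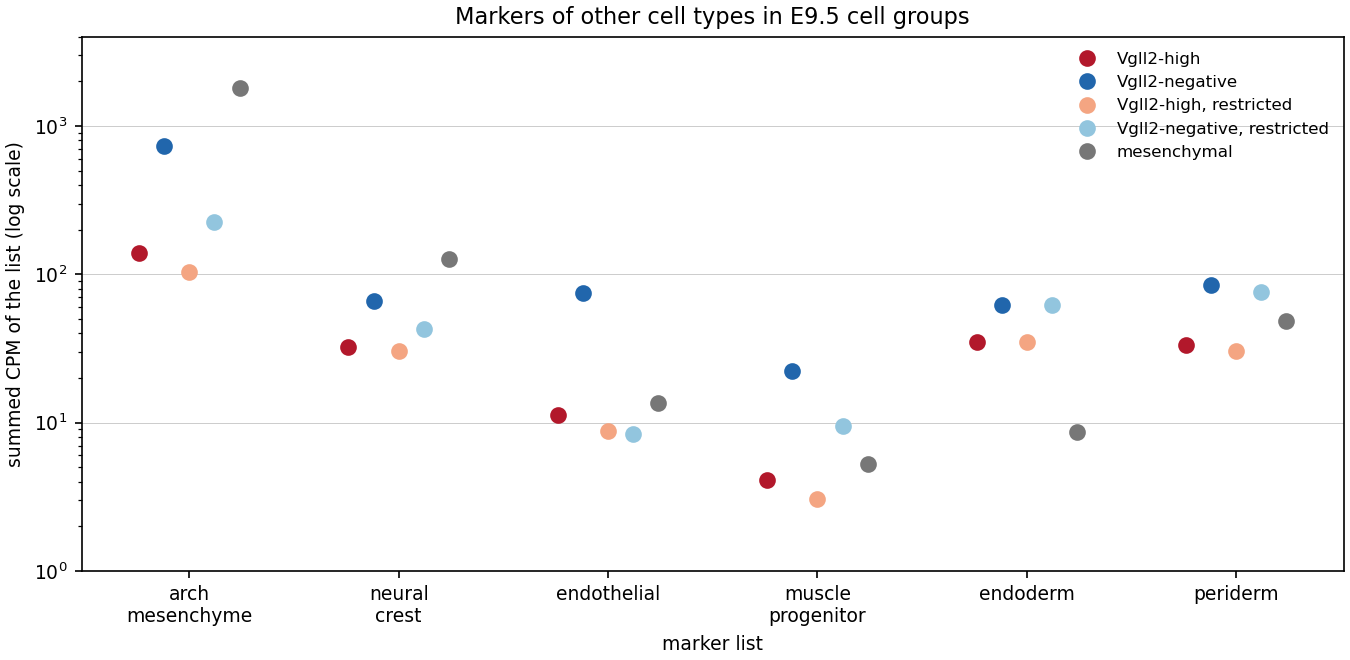
Summed level (CPM, log scale) of 6 lists of markers of other cell types in 5 groups of E9.5 cells, each point 1 list in 1 group. The mesenchyme list sits at 732 CPM in Vgll2-negative cells and 226 CPM in the restricted ones, above 140 and 104 CPM in the Vgll2-high cells, and at 1808 CPM in mesenchymal cells.

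The main comparison asked which transcripts accompany Vgll2 in oral epithelium at the arch stage. A gene is written as higher where its level was at least 1.3 times that of the other group and no fewer than 15% of the cells on the higher side had a UMI of it, and as lower for the reverse. A gene that reached that share in a single group could be called only as higher in that group. Which genes of a list could be called thus depended in part on their levels. Of 7655 genes detected in that share of either group, 398 were higher in the Vgll2-high cells, 5.2%, and 601 were lower, 7.85%. In restricted cells 416 of 7688 were higher, 5.41%, and 919 lower, 12%. Both comparisons shared 193 higher and 465 lower genes, and 4 were called in opposite directions. Of the 398 genes, 205 were not higher in restricted cells. At a ratio of at least 2, 59 genes were higher and 122 lower.

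Fgf8, Pitx1 and Sox2 were higher in the Vgll2-high cells. Fgf8 (chr19:45736798-45742915, - strand), the FGF ligand of the oral ectoderm, read 255 CPM in the Vgll2-high cells, 94.4 CPM in cells with 1 or 2 Vgll2 UMIs and 32.5 CPM in Vgll2-negative cells. The log2 ratio of the outer groups was 2.98 (2.852 to 3.102), and 2.39 in restricted cells. Pitx1 (chr13:55825051-55836192), a paired-type homeodomain factor of mandibular and hindlimb tissue, read 249, 168 and 106 CPM in the same order, a log2 ratio of 1.23 that fell to 0.72 in restricted cells. Sox2 read 142, 80.1 and 51.5 CPM, with log2 ratios of 1.47 and 0.93. A UMI was found in 85.0% of the Vgll2-high cells for Fgf8 and 85.1% for Pitx1, against 15.9% and 37.1% of the Vgll2-negative cells and 6.58% and 6.48% of the mesenchymal cells, which were the deepest of the 3 groups. After thinning to 6100 UMIs the shares were 67.8% and 67.3% against 11.7% and 31.5%. For all 3 genes the cells with 1 or 2 Vgll2 UMIs lay between the groups on either side, and their counting intervals did not overlap.

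Graded by the number of Vgll2 UMIs, Fgf8 rose without a step back from 32.5 CPM in cells with none to 76.4 at 1 UMI, 132 at 2, 171 at 3, 227 at 4, 259 at 5 to 7 and 285 CPM in cells with 8 or more. Pitx1 ran from 106 to 266 CPM over the same classes. Tlx1, a homeobox gene, went the other way, from 70.5 to 15.8 CPM. At the threshold, cells with 3 Vgll2 UMIs, just inside, and with 2, just outside, read Fgf8 at 171 and 132 CPM and Sox2 at 126 and 94.0 CPM. These 2 classes held 136 and 126 cells. In restricted cells Fgf8 ran from 49.8 to 289 CPM, and at 3 and 2 Vgll2 UMIs it read 188 and 135 CPM, Sox2 140 and 97.0 CPM and Pitx1 224 and 185 CPM. There Sox2 and Pitx1 at 2 UMIs lay nearer their level in Vgll2-negative cells, 76.1 and 152 CPM, than their level at 3.

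**Figure D2:**
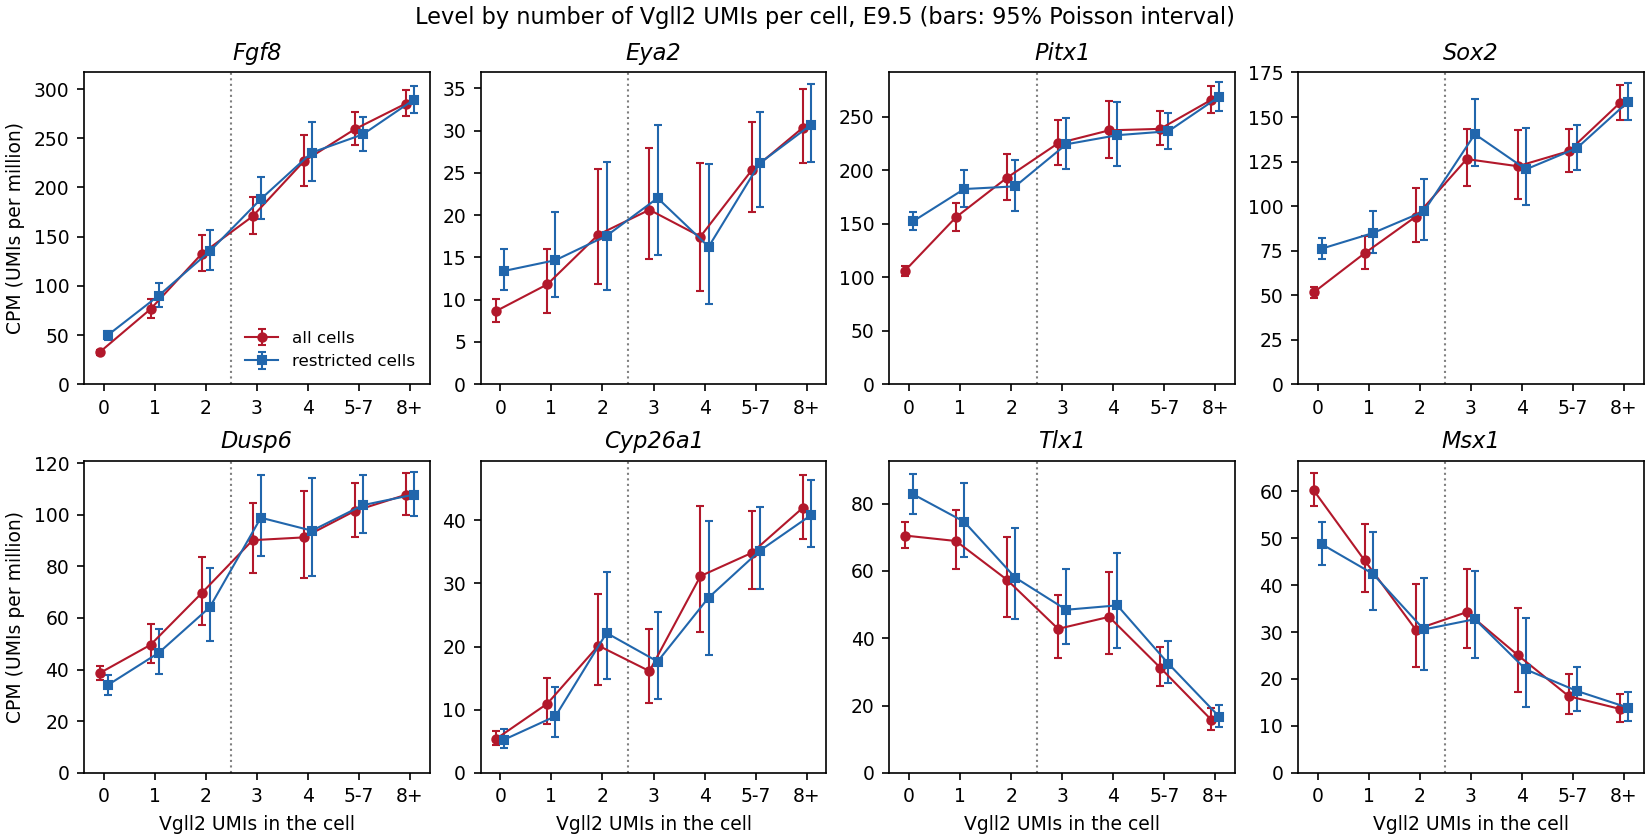
Level (CPM, bars 95% Poisson intervals) of 8 genes in E9.5 cells with 0 to 8 or more Vgll2 UMIs, in all cells meeting the other conditions (red) and in restricted cells (blue). The dotted line is the threshold of 3 UMIs, across which Fgf8 runs from 132 to 171 CPM, while Tlx1 declines from 70.5 CPM at 0 to 15.8 CPM at 8 or more.

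Other homeobox factors of the oral and dental list did not move with Vgll2 in the same way. Of 13 genes of the list reported here, 8 were detected in enough cells, and 4 were higher and 2 lower. In restricted cells 1 was higher and 4 were lower. Irx1, Irx3 and Irx5, Iroquois factors, had log2 ratios of 0.54, 0.45 and 0.71 that became -0.05, 0.06 and 0.26 in restricted cells, so their difference depended on which Epcam-positive cells stood in the reference. Nkx2-3 was not called and turned direction, with 157 against 134 CPM, log2 0.23, in all cells and 160 against 195 CPM, log2 -0.29, in restricted cells. Isl1, a LIM-homeodomain factor, was lower, with 54.5 against 78.8 CPM and log2 ratios of -0.53 and -0.79, but it stood at 0.19 in cells with a Y-linked UMI and no Xist. Tlx1 was lower at 27.0 against 70.5 CPM, log2 -1.39 and -1.55. Irx2 and the forkhead factor Foxe1 were called lower in restricted cells alone, at log2 -1.21 and -1.07. In all cells they were past the ratio too, at -0.58 and -0.55, but too few Vgll2-negative cells had a UMI for a call, 14.2% for Foxe1. Of 8 posterior oral factors, Barx1 and Tcf7l2 were detected in enough cells of either group and neither was called in either comparison. Their log2 ratios were -0.61 and -0.12 in all cells and -0.04 and -0.21 in restricted cells. Barx1 was past the ratio in all cells, but too few Vgll2-negative cells had a UMI for it to be called lower.

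Eya2 and Six4, whose families supply partners of a transcription complex in cranial placodes, and the related Six3 were higher. They were 3 of the 4 genes of their list that could be called, out of 7 reported, beside 5.2% of all genes tested. Eya2 and Six3 reached the 15% needed in the Vgll2-high cells alone, with a UMI in 8.17% and 1.63% of the Vgll2-negative cells. Their place in that count was thus set by their level in the Vgll2-high cells. Eya2, the coactivator and phosphatase partner, read 26.3 against 8.67 CPM, log2 1.60 and 1.01 in restricted cells. Six3 (chr17:85613608-85629302), known from the anterior head and eye field, had the widest ratio of those called, 16.8 against 1.69 CPM, log2 3.31 and 2.70, with a UMI in 18.7% of the Vgll2-high cells, 8.61% after thinning. Six4 was called in all cells at log2 0.43 and not in restricted cells, at 0.20, and Eya1 was not called in either, at 0.13 and -0.17.

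Among 12 cranial placode and neural genes, only Pax2 and Otx2 were detected in enough cells. Pax2 was higher, at 14.1 against 1.69 CPM, log2 3.06 and 2.79. It had a UMI in 18.0% of the Vgll2-high and 1.69% of the Vgll2-negative cells, and in 8.02% and 1.04% after thinning. Otx2, an anterior head factor, read 97.3 against 110 CPM and was not called, whereas in restricted cells it was lower at log2 -0.86. In all cells it was highest at 2 Vgll2 UMIs, 145 CPM, and lowest at 8 or more, 79.9 CPM, whereas in restricted cells it was highest at 0, 176 CPM, and read 151 CPM at 2 and 79.5 CPM at 8 or more. The neuronal genes Neurod1 and Elavl3 had 1 and 6 UMIs in all Vgll2-high cells together, and Tubb3 had 6.

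FGF signalling was represented on the ligand and the response side. Of 9 FGF ligands, Fgf8 and Fgf10 were detected in enough cells and both were higher. Fgf10, better known from mesenchyme, read 20.0 against 6.19 CPM, log2 1.69 and 2.09. Of 14 receptors and response genes, 11 could be called, with 7 higher and none lower, and in restricted cells 6 were higher and Fgfr2 was lower at log2 -0.65. The median log2 ratio of those that could be called was 0.54, beside 0.01 for all genes tested. Dusp6, a phosphatase acting on ERK and induced by FGF, read 102 against 38.6 CPM, log2 1.40 and 1.62, and had a UMI in 70.3% and 29.1% of the cells, or 42.3% and 19.2% after thinning. The ETS factors Etv1, Etv4 and Etv5, transcribed downstream of FGF receptors, had log2 ratios of 1.15, 1.298 and 1.42, which were 2.11, 1.92 and 1.93 in restricted cells. Spry1, a feedback inhibitor, was higher at log2 1.20 and 1.04, and Il17rd, another antagonist of the pathway, at 0.54 and 0.68. Spred2 was called at 0.43 and not in restricted cells, at 0.28. The receptors Fgfr1 and Fgfr2 read 66.7 against 62.1 and 40.3 against 43.2 CPM and were not called in all cells.

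**Figure D3:**
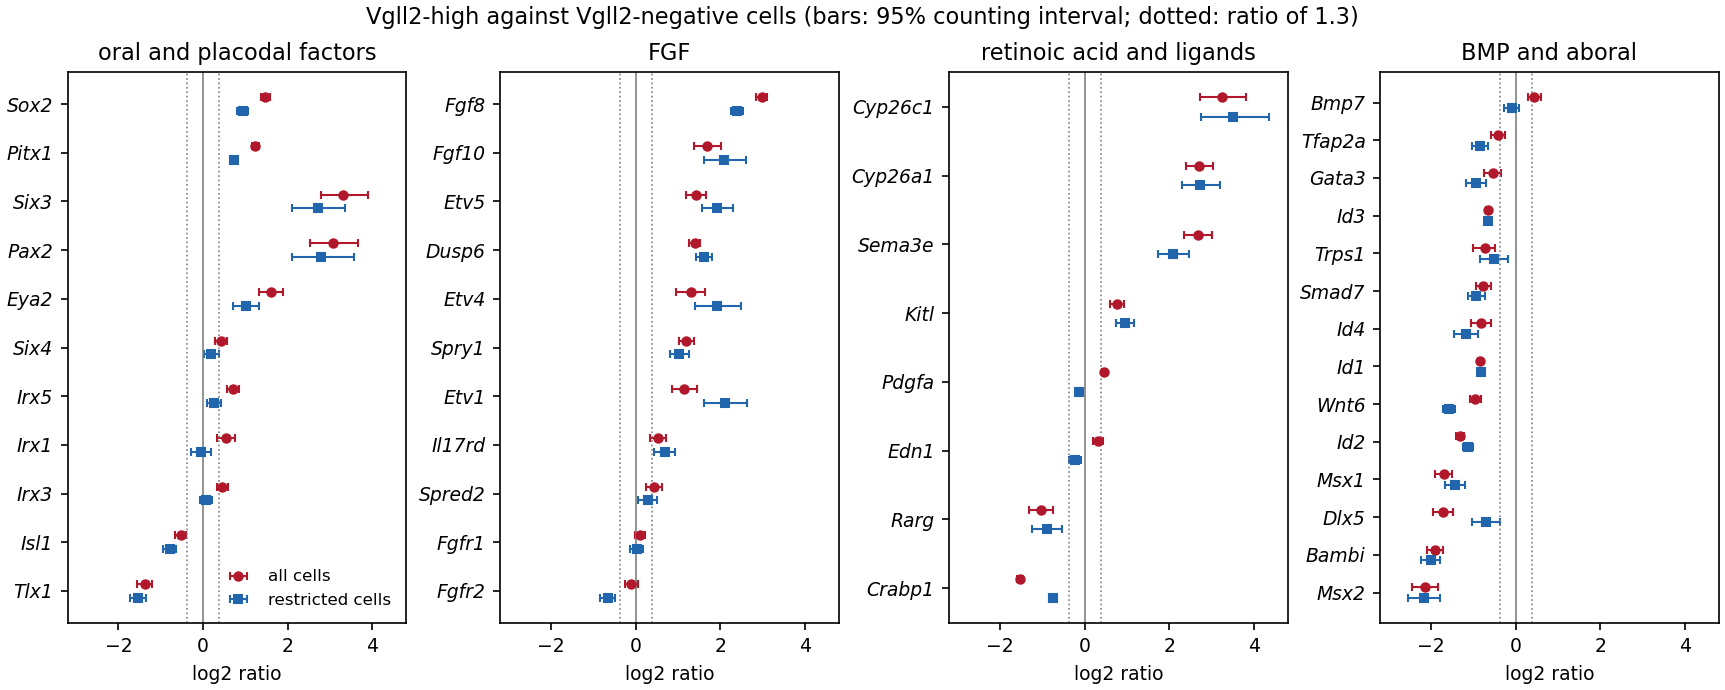
Log2 ratio of the level in Vgll2-high cells to that in Vgll2-negative cells (bars 95% counting intervals, dotted lines a ratio of 1.3) for genes of 4 groups, in all cells (red) and restricted cells (blue). Fgf8 lies at 2.98 and 2.39, Msx2 at -2.14 and -2.15, and Irx1 moves from 0.54 to -0.05.

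Of 3 genes of retinoic acid breakdown, 2 could be called and both were higher. Cyp26a1 (chr19:37697798-37701536) and Cyp26c1 (chr19:37685581-37693398), hydroxylases that clear retinoic acid, read 35.1 against 5.39 CPM and 17.6 against 1.85 CPM. Their log2 ratios were 2.70 and 3.25, and 2.73 and 3.50 in restricted cells. They are neighbours with 4399 bases between them. Cyp26b1, the remaining hydroxylase gene, had a UMI in 6.50% and 3.15% of the cells, too few for a call. It read 4.91 against 3.44 CPM, log2 0.52 (-0.002 to 1.03) and 0.14 in restricted cells. Of the 13 genes of the list, 7 could be called, and 2 were higher and 2 lower, namely Crabp1, a retinoic acid binding protein, at log2 -1.53, and the receptor gene Rarg at -1.02. In restricted cells both were lower at -0.75 and -0.88, and the receptor gene Rarb was also lower at -0.89. Aldh1a2, which makes retinoic acid, had no UMI in the Vgll2-high cells, which allows up to 0.223 CPM there.

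Among 12 endothelin and arch ligands, Sema3e, a guidance cue for vessels and axons, was higher at 33.2 against 5.18 CPM, log2 2.68 and 2.09. Kitl, the ligand of the KIT receptor, was higher at log2 0.77 and 0.95. Pdgfa, a ligand for PDGFRA on the mesenchyme, read 519 against 378 CPM, log2 0.46 and thus higher, and -0.13 in restricted cells, where it was not called. Edn1, the endothelin that sets ventral arch identity, read 75.2 against 60.1 CPM and was not called in either, with log2 ratios of 0.32 and, in restricted cells, -0.23. Sema3c, another semaphorin, Pdgfc, a PDGF ligand, and Ece1, which cleaves the endothelin precursor, were called lower in restricted cells alone. Their log2 ratios there were -1.55, -0.94 and -0.46, and in all cells -0.90, -0.44 and -0.23. Sema3c and Pdgfc were past the ratio in all cells too, but 13.1% and 13.0% of the Vgll2-negative cells had a UMI, too few for a call.

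BMP response genes and factors of the aboral ectoderm were lower. Of 15 BMP genes, 7 could be called, with 6 lower and Bmp7 alone higher, and in restricted cells 8 were lower and none higher. Id1, Id2, Id3 and Id4, inhibitors of basic helix-loop-helix factors induced by BMP, had log2 ratios of -0.84, -1.31, -0.65 and -0.82. In restricted cells these were -0.82, -1.13, -0.65 and -1.17. Bambi, a pseudoreceptor that dampens BMP signalling and is induced by it, read 18.8 against 70.0 CPM, log2 -1.90 and -2.002. The inhibitory Smad7 was lower at log2 -0.76 and -0.93, but stood at -0.20, short of the ratio, in cells with a Y-linked UMI and no Xist. The ligand Bmp4 read 4.69 against 14.96 CPM with a UMI in 6.27% and 12.8% of the cells (2.59% and 7.92% after thinning), too few for a call, and was lower in restricted cells at log2 -2.10. Bmp7 had a log2 ratio of 0.44, and of -0.09 in restricted cells. Msx1 (chr5:37820485-37824583) and Msx2 (chr13:53466884-53473074), homeobox targets of BMP, read 18.5 against 60.2 CPM and 7.74 against 34.2 CPM. Their log2 ratios were -1.70 and -2.14, and -1.43 and -2.15 in restricted cells.

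Of the 15 aboral and surface ectoderm genes, 9 could be called, 7 were lower and none was higher in either comparison. Beside Msx1 and Msx2 these were Wnt6, Gata3, Dlx5, Tfap2a and Trps1. Wnt6, a WNT ligand of surface ectoderm, read 47.2 against 91.6 CPM, log2 -0.95 and -1.57. Dlx5, a distal-less factor also made by arch mesenchyme, differed between comparisons, from log2 -1.72 to -0.70. Tfap2a, an ectoderm and neural crest factor, went from -0.41 to -0.84 and stood at -0.19, short of the ratio, in cells with Xist and no Y-linked UMI, Gata3 from -0.54 to -0.94 and Trps1 from -0.73 to -0.51. Trp63, which epidermal lineages need, was not called and turned direction, with 48.8 against 39.2 CPM, log2 0.32, in all cells and 48.9 against 61.8 CPM, log2 -0.34, in restricted cells. Msx1 and Msx2 were also high in mesenchymal cells, at 78.8 and 52.7 CPM.

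WNT, hedgehog and Notch genes were for the most part lower where they were called. No gene of 21 on the WNT list was higher, and 3 of the 9 that could be called were lower, the ligand Wnt9b at log2 -0.85, the antagonist Sostdc1 at -0.57 and the antagonist Sfrp1 at -0.43. In restricted cells Wnt9b was at -1.52, Sostdc1 at -1.19 and Sfrp1 at 0.13, and the WNT ligand Wnt4 was lower at -0.88. Ptch1, the hedgehog receptor and a target of the pathway, was lower at log2 -0.71 and -0.85, though at -0.10 and not past the ratio without the exclusions of the rule, and Gas1, a coreceptor, at -0.46 and -0.84. Gli3 was higher at 0.41 and stood at 0.00 in restricted cells. Hey1 was the Notch gene called, lower at log2 -0.44 and at -0.27 in restricted cells, where Jag1 and Notch3, at 0.19 and -0.09 in all cells, were lower at -0.42 and -0.48.

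The partners of VGLL2 differed little. Tead1 and Tead2, the TEAD genes detected in most cells, read 135 against 116 CPM and 207 against 209 CPM, with log2 ratios of 0.22 (0.13 to 0.31) and -0.02 (-0.09 to 0.06). In restricted cells these were -0.04 and -0.07, so Tead1 turned direction. Tead3 and Tead4 had a UMI in 12.9% and 8.71% of the Vgll2-high cells. Yap1 stood at log2 -0.08 and Vgll4 at -0.12, and in restricted cells at -0.215 and -0.325, neither called, and Vgll1 and Vgll3 read 0.0744 and 3.13 CPM. Of 16 genes of this list, 10 could be called and 3 were lower, Wwtr1, which encodes TAZ, at log2 -0.97 (-0.353 with the rule applied to thinned cells, short of the ratio), the kinase gene Lats2 at -0.85 and Ccn1, a target of YAP and TAZ, at -1.18. In restricted cells the same 3 stood at -0.97, -1.11 and -1.16, and Ajuba and Amotl2 were lower too.

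Epithelial structure genes split. Krt8 and Krt18, the keratin pair of simple epithelia, were lower, with 261 against 436 CPM and 460 against 648 CPM. Their log2 ratios of -0.74 and -0.49 were -1.17 and -0.96 in restricted cells. Desmoplakin (Dsp) was lower at -0.42 and -0.98, and the desmosomal gene Perp at -0.97 and -1.55. Cldn6, Cldn7, Esrp1 and Dsg2 were higher in all cells, at log2 0.70, 0.77, 0.56 and 0.45, and stood at -0.002, 0.10, -0.05 and -0.16 in restricted cells. Without the exclusions of the rule Krt18 and Dsp stood at -0.18 and -0.06, short of the ratio. Cdh2, N-cadherin, read 22.6 against 16.5 CPM, log2 0.45, and 1.59 in restricted cells. It fell short of the ratio with the reference averaged over strata of depth, at 0.26, with a threshold of 2 Vgll2 UMIs, at 0.35, without the exclusions, at 0.37, and in cells with a Y-linked UMI and no Xist, at 0.05. Cdh1, E-cadherin, stood at -0.18 in all cells and was lower in restricted cells at -0.74. Of the 20 keratin and adhesion genes, 5 were higher and 5 lower in all cells, and 1 and 10 in restricted cells, where Epcam too read higher in the reference. The list summed to 1499 against 1755 CPM in all cells and 1524 against 2521 CPM in restricted cells. The part of the Epcam floor in these counts was not tested. Of 15 basement membrane and integrin genes, Nid2 was higher in both comparisons at log2 0.74 and 0.56, and Dag1 and Hspg2 were lower in both, Dag1 falling short of the ratio over strata of depth, at -0.37.

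Growth-associated genes were in part higher. Lin28b, which blocks let-7 maturation, was higher at log2 0.74 and 0.98, and Mycn at 0.40 and 0.69, though Mycn stood at 0.08 without the exclusions. Lin28a was higher at 0.56 and stood at 0.34 in restricted cells. Myc stood at -0.02 in all cells and was higher in restricted cells, at 14.8 against 7.70 CPM, log2 0.95. Cyclin D1 (Ccnd1) read 196 against 123 CPM, log2 0.67 and 0.89, and cyclin D2 (Ccnd2) 0.48 and 0.24. Of the 8 D cyclins and inhibitors, 6 could be called, with 2 higher and 4 lower, and 1 and 4 in restricted cells. Cyclin D3 (Ccnd3) was among the lower genes in both comparisons. The inhibitors Cdkn1a, Cdkn1b and Cdkn1c were lower at log2 -0.75, -0.59 and -1.46, and -1.24, -0.87 and -1.49 in restricted cells. Cdkn1a fell short of the ratio in cells with a Y-linked UMI and no Xist, at -0.33, and Cdkn1b without the exclusions, at -0.30. Genes of the phases themselves moved little. Of 16 S phase genes all could be called and 2 were higher, Ccne1 and Ung, and of 16 G2 and M phase genes Ccnb2 was lower and none was higher. The S phase list summed to 2557 against 2273 CPM and the G2 and M list to 3328 against 3494 CPM, and in restricted cells to 2566 against 2318 and 3376 against 3702 CPM.

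Markers of other epithelial and non-epithelial types were low in the Vgll2-high cells. The rule had removed cells with Foxa1, Foxa2, Shh, Pax1 or Tfap2b, or with more than 1 Sfn UMI, from both groups. Low levels of endoderm and periderm markers were thus in part set by the choice of cells. Of the 12 periderm markers, Grhl3, Krt4, Krt6a, Gabrp and Pkp1 had no UMI, and the list summed to 33.3 CPM against 85.2 CPM. Of 9 endoderm markers, Cldn18 and Hoxb1 had none, Foxa3, Nkx2-1 and Spink1 1 UMI each, and Nkx2-5, a cardiac and pharyngeal factor, was the exception at 30.1 CPM in 30.4% of the cells, against 28.9 CPM in Vgll2-negative cells and, in restricted cells, 30.9 against 36.5 CPM. The 6 muscle progenitor markers summed to 4.09 CPM against 22.4 CPM, the 5 neural crest markers to 32.2 CPM against 65.8 CPM with Foxd3 at 0, and the 5 Hox genes of the second arch to 0.0744 CPM against 8.20 CPM. Apoptosis genes summed to 277 against 306 CPM with none called. Among immediate-early genes, Jun and Fos were lower at log2 -1.26 each, and -1.01 and -1.48 in restricted cells. Egr1 was lower at -0.52 in all cells and at -0.28, not called, in restricted cells. Blood globins were lower in all cells, with Hba-x at log2 -1.26, and higher in restricted cells, with Hba-x at 2.07, and without the cells of 100 or more globin UMIs Hba-x stood at -0.06. A globin UMI was common, as Hba-x had one in 55.6% of the Vgll2-high cells, but most UMIs lay in few cells. A single Vgll2-high cell held 5110 of the 7074 globin UMIs of its group, and the next held 9.

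The Vgll2-high cells were set beside the other Epcam-positive groups of the library, which the rule left out. These were 63 Foxa-positive cells (at least 3 UMIs over Foxa1, Foxa2 and Shh), 226 Pax1-positive cells (at least 2 UMIs), 88 Sfn-positive cells (at least 3) and 346 Tfap2b-positive cells (at least 2, of which 13.9% were called doublets). The Tfap2b-positive cells carried mesenchymal more than epithelial transcripts. Their mesenchyme markers summed to 1476 CPM, beside 1808 CPM in mesenchymal cells, their neural crest markers to 150 against 126 CPM there, and their keratin and adhesion genes to 410 CPM. Their median was 1 Epcam UMI, against 7 in each of the Foxa-, Pax1- and Sfn-positive groups, whose mesenchyme markers summed to between 183 and 255 CPM. Fgf8 read 255 CPM in the Vgll2-high cells, and the next group in order was the Pax1-positive cells at 59.7 CPM (51.7 to 68.7), whose interval overlapped that of the Sfn-positive cells at 55.2 CPM. Vgll2 itself read 270 CPM in Pax1-positive cells, which express a marker of pharyngeal pouch endoderm, and 166 CPM in Foxa-positive cells. Sox2 and Pitx1 were not highest in the Vgll2-high cells. Foxa-positive cells read Sox2 at 267 CPM and Pitx1 at 305 CPM, and Pax1-positive cells read Sox2 at 174 CPM and Pitx1 at 18.2 CPM. Cyp26a1 read 35.1 CPM in the Vgll2-high cells and 26.1 CPM (20.9 to 32.2) in the Pax1-positive cells, with intervals that overlapped. Six3 read 16.8 CPM (14.7 to 19.2) in the Vgll2-high cells and 8.23 CPM (3.55 to 16.2) in the Foxa-positive cells, whose interval overlapped it.

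**Figure D4:**
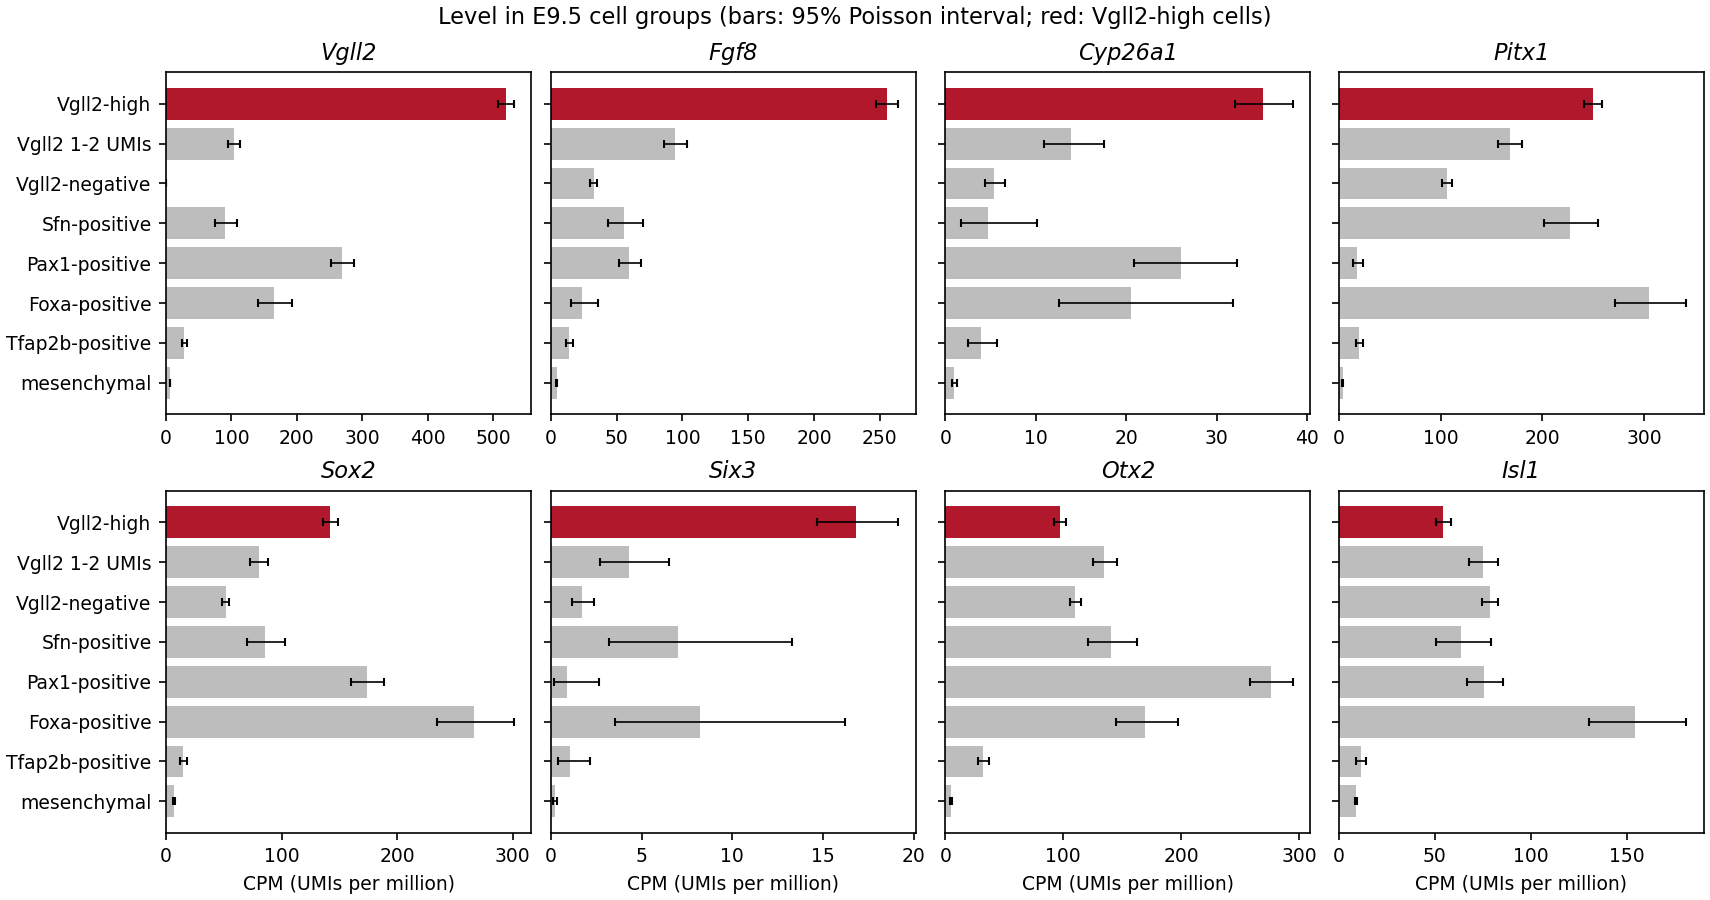
Level (CPM, bars 95% Poisson intervals) of 8 genes in 8 groups of E9.5 cells, with the Vgll2-high cells in red. Fgf8 is highest in the Vgll2-high cells, at 255 CPM, whereas Sox2 reaches 267 CPM in the Foxa-positive cells and Otx2 276 CPM in the Pax1-positive cells.

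Within the Vgll2-high cells the genes were not detected uniformly. Fgf8 ranged from 0 to 20 UMIs per cell with a median of 3 and was at 0 in 129 cells. Pitx1 was at 0 in 128 cells and Irx1 in 605. All 3 of Fgf8, Pitx1 and Sox2 were detected in 501 of the 861 cells, 58.2%, against 61 of the 1713 Vgll2-negative cells, 3.56%. After thinning to 6100 UMIs these shares were 26.7% (23.7 to 29.8) and 1.63% (1.02 to 2.46), and none of the 3 was detected in 7.43% and 53.1% of the cells. Split into 5 ranges of total UMIs, the Vgll2-high cells read Fgf8 between 227 and 287 CPM and Sox2 between 121 and 152 CPM, and the Vgll2-negative cells of the same depth ranges read Fgf8 between 27.3 and 45.4 CPM and Sox2 between 22.5 and 66.3 CPM. In each depth range the counting intervals of the groups were apart for both genes. Within the shallowest range the groups were not matched in depth, at medians of 10254 and 7510 UMIs. That range held 1018 of the 1713 Vgll2-negative cells. Other genes depended on depth. Tlx1 read 27.2 against 96.8 CPM in the shallowest range and 28.9 against 28.2 CPM in the deepest, where the groups overlapped. Pitx1 read 220 against 149 CPM in the shallowest and 273 against 36.4 CPM in the deepest. The mesenchyme marker Prrx1 moved with depth in the Vgll2-negative cells, at 31.4, 71.5, 126, 137 and 194 CPM from the shallowest range to the deepest, while in the Vgll2-high cells it lay between 12.1 and 27.1 CPM. Over the same ranges Sox2 in the Vgll2-negative cells went from 66.3 to 22.5 CPM. The part of mesenchymal transcripts in these differences by depth was not tested.

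**Figure D5:**
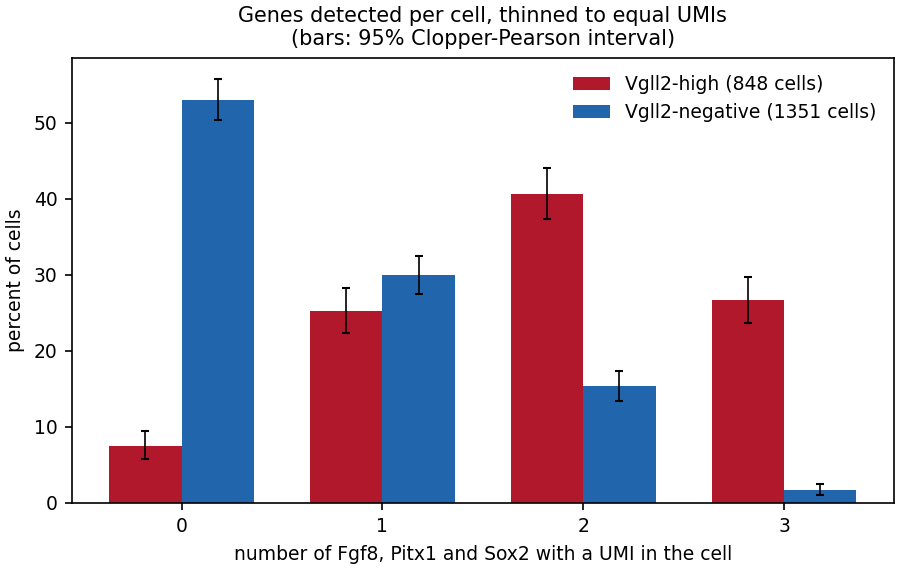
Percent of cells (bars 95% Clopper-Pearson intervals) in which 0 to 3 of the genes Fgf8, Pitx1 and Sox2 had a UMI, after each cell was thinned to 6100 UMIs, for 848 Vgll2-high and 1351 Vgll2-negative cells. All 3 were found in 26.7% and 1.63% of the cells, and none in 7.43% and 53.1%.

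Joint detection was computed for 66 pairs of 12 genes in the 848 thinned Vgll2-high cells, as the share of cells with both genes over the product of their shares. The interval covered the joint share only, with the single shares taken as fixed. It held 1 for 63 pairs, lay above it for 3 and below it for none. Sox2 with Pitx1 gave 1.14 (1.05 to 1.24). The other 2 were Eya1 with Wnt5a at 1.38 (1.01 to 1.85) and Dlx5 with Tfap2a at 1.84 (1.16 to 2.77), the latter from 22 cells. Without thinning these values were 1.06, 1.13 and 1.12. The 3 pairs were 4.55% of the 66. As the single shares came from the same cells, the share of intervals that leave out 1 by chance need not be 5%. A pair whose interval held 1 is therefore not read as independent, and association of the 3 pairs was not tested. No pair with Fgf8 was among the 3.

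Outside the lists, the 10 genes with the widest higher ratios were Cldn10, Gsc, Fam46a, Dmrta2, Gabra4, Prdm1, Nuak2, Fgfbp1, Gldc and Rbm47, and all 10 were higher in restricted cells too. The restricted cells are a part of the same cells, so this is no separate support. All 10 reached the 15% needed in the Vgll2-high cells alone, with a UMI in 1.93% to 12.4% of the Vgll2-negative cells. Cldn10, a claudin of tight junctions, read 36.6 against 3.75 CPM, log2 3.29 and 2.999 in restricted cells. Gsc, a homeobox gene of the arches and the organizer, read 12.0 against 1.85 CPM, log2 2.69 and 2.55, and was in 15.3% of the cells, 6.72% after thinning. Prdm1, a zinc finger repressor, read 36.3 against 8.67 CPM, log2 2.07 and 1.81. Dmrta2 had a log2 ratio of 2.40 and Fgfbp1, which releases FGFs from the matrix, of 1.94. The 10 lowest were Pmp22, Ahnak, Bgn, Plxna2, Parm1, Cdh6, Zeb2, Col23a1, Emilin1 and Mef2c, at log2 ratios from -3.21 to -2.31. In restricted cells Pmp22, Ahnak, Plxna2 and Parm1 were still lower, at -2.86, -3.44, -3.08 and -3.13. The other 6, which include the matrix gene Bgn and the mesenchymal repressor Zeb2, were not called there.

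Promoters of the higher genes were read for the core letters recognised by TEAD factors, GGAATG, and by PITX1 and related homeodomain factors, TAATCC, called the PITX core here, on both strands, from 250 bases before to 50 after each RefSeq start (GRCm38.p6). Of the 398 higher genes 297 had a promoter entry. A TEAD core stood in 15.5% of them and a PITX core in 6.73%, beside 13.3% and 6.59% of the 6074 tested genes with an entry. The 601 lower genes held a TEAD core in 18.8% and a PITX core in 5.70% of those with an entry. Of the genes higher by a ratio of at least 2, 45 had a promoter entry. Of these, 8 held a TEAD core, 17.8%, and 6 a PITX core, 13.3%. The TEAD core was thus not more frequent in the higher than in the lower genes. Promoters of 14 genes were then read one by one, namely Vgll2, Sox2, Six3, Tox3, the Cyp26 pair and 8 of the genes with the widest ratios, a choice made with their values known, and 3 of the genes held a core. All 4 matches are shown, since they carry that statement. Each run is written on the strand of its gene with the core in capitals and 30 bases on either side. A match describes letters and not a bound site. The core lay 111 bases upstream of the start in Cyp26c1, 73 in Gldc, and 220 and 179 at separate starts of Rbm47.
Cyp26c1, PITX core, chr19:37685539-37685604, + strand: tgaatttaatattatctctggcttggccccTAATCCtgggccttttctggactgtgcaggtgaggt
Gldc, TEAD core on the opposite strand, chr19:30175479-30175544, - strand: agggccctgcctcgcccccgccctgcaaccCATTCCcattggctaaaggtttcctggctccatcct
Rbm47, PITX core on the opposite strand, chr5:66152139-66152204, - strand: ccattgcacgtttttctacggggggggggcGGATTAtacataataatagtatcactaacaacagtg
Rbm47, TEAD core, chr5:66151122-66151187, - strand: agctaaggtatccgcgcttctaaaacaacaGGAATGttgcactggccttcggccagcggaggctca

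Vgll2 had neither core in its window. The 250 bases upstream of its start, chr10:52022252-52022501 on the + strand, are shown because the gene defines the cells.
Vgll2, upstream of the start: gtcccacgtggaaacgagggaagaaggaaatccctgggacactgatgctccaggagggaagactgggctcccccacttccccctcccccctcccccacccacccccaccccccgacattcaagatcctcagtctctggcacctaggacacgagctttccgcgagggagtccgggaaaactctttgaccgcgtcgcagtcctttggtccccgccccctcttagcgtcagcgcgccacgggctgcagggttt

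At E12.0 Vgll2 was low in the sorted epithelium. It read 0.757 CPM (0.576 to 0.977), from 59 UMIs in 54 of 11355 kept cells, and 1 cell had 3 or more. Under the conditions other than Vgll2, 2831 E12.0 cells remained with 23 Vgll2 UMIs in 23 of them. In the Epcam-positive cells of E9.5 it read 162 CPM and had a UMI in 40.1% of the cells. The stages differed in sort, in depth and in the gene reference used for counting, and the difference cannot be told apart from them. Beside these, the E12.0 cells that met the other conditions read Pitx1 at 464 CPM, Sox2 at 134 CPM and Fgf8 at 44.1 CPM, and in the E9.5 Vgll2-high cells those were 249, 142 and 255 CPM.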

How the data were processed

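Unique molecular identifier (UMI) counts per gene and cell, as deposited by the authors, came from 10x Genomics 3' libraries. The submitters' notes name Cell Ranger 2.0.0 and GRCm38 (mm10), whereas the matrix headers name 3.1.0 at E12.0 and 6.1.2 at E9.5. The E12.0 matrix listed 27998 genes and the E9.5 matrix 31053, with 27514 shared by identifier. The libraries held 78911671 and 208540526 UMIs. The cells, gene lists and comparisons were chosen with earlier results of these data known.

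Of 14293 E9.5 barcodes, 1129 with over 5500 genes, 11 with under 200 and 418 with over 10% mitochondrial UMIs were removed, some for more than 1 reason. Counts were summed per cell group and divided by the group's total (CPM). Intervals were exact Poisson for levels, exact binomial for log2 ratios, and Clopper-Pearson for shares, each at 95%. They cover counting error only, since 1 library per stage gives no replicate and the pooled embryos cannot be separated. A count of 0 was given the limit of 3 counts. Detection shares are unthinned except where thinning is named. For those and for joint detection each cell was reduced to 6100 UMIs. Doublets were called with Scrublet and kept, and an alternative left them out. Some genes of the lists are not reported here. Within each list all others were counted. Named were the genes of the choice itself, listed transcription factors and ligands that were called, and the 10 widest ratios in each direction outside the lists. Not every called factor or ligand was named above. Those left out include Prrx2 and Ets1, lower in all cells, and Bmp5, Gli2 and Tcf7l1, lower in restricted cells alone. Other listed genes in the text were picked to describe their list after their values were seen. The calculations were tested on simulated data. Gene coordinates are those of GENCODE M21 on GRCm38, and promoters those of RefSeq on GRCm38.p6. The work used Python 3.11.15 with scanpy 1.11.5 and scipy 1.17.1 for the cells and numbers, numpy 2.4.6 and pandas 2.3.3 for tables, and matplotlib 3.10.9 for plots.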

Additional observations from a re-analysis of the deposited data

How the results depend on the processing

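The 130 genes with a ratio in the comparison were recomputed under each alternative, giving 2210 values, of which 2110 had the sign of the value reported and 1490 lay within its counting interval. Fgf8 ranged from 2.11 to 3.20 on the log2 scale, Sox2 from 0.89 to 1.83, Cyp26c1 from 2.68 to 4.18, Tlx1 from -2.10 to -1.02 and Msx2 from -2.47 to -1.93. Of 100 values of opposite sign, 73 concerned 22 genes that had not been called and 27 concerned 12 genes that had. The latter are given here. With at least 3 Epcam UMIs Irx1 stood at -0.062, Pdgfa at -0.095, Bmp7 at -0.03, Dsg2 at -0.116, Esrp1 at -0.031, Sfrp1 at 0.033 and Hba-x at 2.007. In restricted cells, chosen after the data were seen, these stood at -0.053, -0.131, -0.086, -0.163, -0.046, 0.13 and 2.069, and Cldn6 at -0.002. With restricted cells averaged over strata of total UMIs, also chosen afterwards, Irx3 stood at -0.048, Pdgfa at -0.169, Bmp7 at -0.022, Dsg2 at -0.013, Esrp1 at -0.019, Sfrp1 at 0.148, Gli3 at -0.079, Hba-x at 1.711 and Mef2c at 0.05. Sfrp1 stood at 0.071 with at most 1 mesenchymal UMI, Dsg2 at -0.128 with the rule on thinned cells, and Isl1 at 0.187 in cells with a Y-linked UMI and no Xist. Of 101 called genes, 38 fell short of a ratio of 1.3 under at least 1 alternative. Without the exclusions these included Cdkn1b, Sostdc1, Gas1, Ptch1, Krt18, Dsp, Mycn and Ung, and in cells with a Y-linked UMI and no Xist Smad7, Cdkn1a, Ccne1 and Gata3. In restricted cells Ccnd2, Cldn7, Egr1, Hey1, Irx5, Lin28a, Prrx1, Six4, Spred2 and Twist1 fell short, and under other alternatives Cdh2, Dag1, Tfap2a and Wwtr1. The remaining 12 are those of the sign changes above. The causes were not tested.

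Against 861 Vgll2-high cells, 398 higher and 601 lower genes, applying the rule to thinned cells left 529 cells and 250 higher genes. Lower genes numbered 917 with at least 3 Epcam UMIs and 919 in restricted cells. In cells with a Y-linked UMI and no Xist, which were 221 Vgll2-high and 337 Vgll2-negative cells, 779 genes were higher. A ratio of at least 2 left 59 higher and 122 lower genes, a UMI in at least 25% of cells left 305 lower genes, and dropping the share of cells gave 1514 higher and 4272 lower genes. No paired analysis was possible because each stage had 1 library. Genes with a UMI in under 15% of the cells of both groups, such as Tead3, could not be called at this depth.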

Other observations

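Npm3, which encodes a histone chaperone of the nucleoplasmin family, is the neighbour of Fgf8 on chromosome 19 (chr19:45747734-45749591, - strand), with 4818 bases between them. It was picked after its values were seen. It read 547 CPM in the Vgll2-high cells against 236 CPM in the Vgll2-negative cells, a log2 ratio of 1.21 (1.16 to 1.26), and Fgf8 read 2.98 on that scale. Cyp26c1 and Cyp26a1 were another pair of neighbours among the genes named, with 4399 bases between them.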
